A study of Homo sapiens with 12 samples.

Results

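The genes described here are 9 genes of the complement system and its regulation, C1R, C1S, C3, CFB, CFI, SERPING1, CD46, CD55 and CD59, chosen by their symbols from the 56609 gene symbols of the deposited count table. All 9 were present in the table, and 7 of them passed the filter on low counts and were tested together with the other genes, 21698 in all. CFB and SERPING1 did not pass it. The cells were A375, a human malignant melanoma line grown from skin, studied for how loss of MAPKAPK2, a stress-activated kinase downstream of p38, affects resistance to inhibitors of BET bromodomain proteins. The 4 groups were wild-type cells in DMSO (the solvent control), wild-type cells in 500 nM JQ1 (a BET bromodomain inhibitor), MAPKAPK2-knockout cells in DMSO, and MAPKAPK2-knockout cells in 500 nM JQ1. The treatment field gives DMSO for the groups without JQ1, while their titles call them untreated, so whether JQ1 values include an effect of the solvent depends on which holds. Every group was treated for 48 h and held 3 replicate libraries of rRNA-depleted total RNA, 12 in all. The knockout was made with CRISPR/Cas9. Whether it is a single clone, and what the wild-type cells received in place of the guide, is not given in the sources used here, so that the lost gene and any other difference between the lines cannot be told apart. The labels do not say whether replicates were separate cultures, and p-values then measure only the spread between these libraries, which may be technical.

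Complement is a cascade of plasma proteins that tags and lyses cells. C1R and C1S are the serine proteases of the C1 complex that start the classical pathway, C3 is the central component whose cleavage deposits C3b on surfaces, and CFB forms the alternative pathway convertase with C3b. The remaining members hold the cascade back. CFI is the protease that inactivates C3b and C4b, SERPING1 is the inhibitor of C1R and C1S, CD46 is the membrane cofactor for CFI, CD55 speeds the decay of convertases, and CD59 blocks assembly of the membrane attack complex. CD55 and CD59 are held on the membrane by a glycosylphosphatidylinositol (GPI) anchor. Tumour cells, melanoma included, are known to carry the membrane regulators.

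Promoter sequences are shown for the members called with JQ1 in both lines, C1R, CFI, CD55 and CD59, other than C3. They come from RefSeq on GRCh38.p14, each with 300 bases around an annotated start, written 5′ to 3′ on the strand of the gene. Capitals mark matches on either strand to 5 short motifs, in which N is any base. The motif of AP-1 factors was searched as TGANTCA, that of STAT factors as TTCNNNGAA, the E-box as CACGTG, the TATA box as TATAAA and the motif of C/EBP factors as TTGCNNAA.
C1R promoter, first start, chr12:7092396-7092695, minus strand: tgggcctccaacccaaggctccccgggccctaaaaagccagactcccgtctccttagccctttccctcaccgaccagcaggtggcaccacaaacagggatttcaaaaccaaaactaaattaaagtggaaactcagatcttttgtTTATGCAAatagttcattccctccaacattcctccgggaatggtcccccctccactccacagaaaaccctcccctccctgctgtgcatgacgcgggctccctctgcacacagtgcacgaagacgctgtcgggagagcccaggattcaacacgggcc
CFI promoter, chr4:109801950-109802249, minus strand: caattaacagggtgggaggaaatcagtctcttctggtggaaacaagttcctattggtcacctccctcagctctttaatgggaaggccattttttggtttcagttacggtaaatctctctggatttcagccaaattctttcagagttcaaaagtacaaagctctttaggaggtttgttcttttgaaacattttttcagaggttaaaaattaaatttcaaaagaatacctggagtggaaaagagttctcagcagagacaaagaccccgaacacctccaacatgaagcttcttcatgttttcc
CD55 promoter, chr1:207321428-207321727, plus strand: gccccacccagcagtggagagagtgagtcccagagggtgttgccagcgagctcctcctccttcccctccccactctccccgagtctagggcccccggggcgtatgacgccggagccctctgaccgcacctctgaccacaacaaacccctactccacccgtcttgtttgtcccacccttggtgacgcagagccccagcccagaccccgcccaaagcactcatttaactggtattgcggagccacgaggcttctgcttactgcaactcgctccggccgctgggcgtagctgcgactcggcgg
CD59 promoter, first start, chr11:33736430-33736729, minus strand: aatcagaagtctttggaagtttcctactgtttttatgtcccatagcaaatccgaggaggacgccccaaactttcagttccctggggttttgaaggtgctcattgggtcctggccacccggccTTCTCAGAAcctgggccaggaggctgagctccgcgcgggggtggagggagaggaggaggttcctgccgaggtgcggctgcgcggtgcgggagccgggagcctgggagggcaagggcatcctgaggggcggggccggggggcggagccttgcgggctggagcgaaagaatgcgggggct

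RefSeq promoters were matched for 6 of the 9 members, all but C1S, C3 and SERPING1. The table gives 2 starts for C1R and 4 for CD59, of which the first is shown. The first C1R start held 1 TTGCNNAA match, beginning 106 bases before the start, a motif in 10.5% of all 35116 promoters of that length. The first CD59 start held 1 TTCNNNGAA match, beginning 128 bases before it, a motif in 7.66% of promoters. The starts not shown held other matches, namely 1 TTCNNNGAA and 1 TTGCNNAA match at the second C1R start, 2 TTGCNNAA matches at the third CD59 start and 3 TGANTCA matches at the fourth, so the account depends on the start taken. In the CFI and CD55 windows none of the 5 motifs was found. The GC box GGGCGG, left in lower case because 45% of promoters hold it, occurred 1 time in the CD55 window and 2 times in that of CD59. The CFI promoter had 39.3% G and C and 2 CpG sites, against medians of 58.7% and 14 over all promoters, whereas the CD55 promoter had 65% and 19 and the CD59 promoter 64.3% and 18. A match is a description of the letters only.

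Libraries held 25316899 to 34594295 estimated counts assigned to genes. Levels are given in CPM, the counts scaled to a common library size, after TMM scaling, a correction for differences in library composition. MAPKAPK2 itself had a mean of 89.6 ± 2.2 CPM (SD, n = 3) in wild-type DMSO and 117.1 ± 4.31 CPM in wild-type JQ1. The knockout cells had 12.4 ± 1.15 CPM with DMSO and 14.4 ± 1.61 CPM with JQ1, so that all 12 libraries followed their genotype labels. This does not check the JQ1 labels. Knockout JQ1 replicate 3 stood apart from the other replicates of its group: over genes of at least 5 CPM, the chi-square per degree of freedom against each was 46.5 and 49.2, while other replicate pairs had 4.64 to 12.6. It also had the highest share of counts in 4 abundant non-coding RNAs, 14.6%, against a lowest share of 9.42%. Values without it are given below. Of the melanocyte and melanoma markers, SOX10 was high and the pigment gene PMEL had 0.513 CPM in wild-type DMSO. Hepatocyte markers, from the main source of plasma complement, summed to at most 0.389 CPM in any library, with ALB at 0 in wild-type DMSO. As the libraries come from a cultured line, these markers are read as expression in that culture and not as numbers of other cell types. In bulk RNA, a change in some of the cultured cells and a change in all of them cannot be told apart.

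CD46 and CD59 were the most abundant members in A375. Divided by transcript length, CD46 was at 43.4 ± 1.8 CPM per kb (SD, n = 3) in wild-type DMSO, CD59 at 31.8 ± 0.64, CD55 at 15.4 ± 1.4, CFI at 8.29 ± 0.29, C1R at 5.49 ± 0.22, C3 at 1.02 ± 0.093 and C1S at 0.149 ± 0.029. The libraries of neighbours in this order did not overlap. SERPING1 at 0.0604 ± 0.055 and CFB at 0.0197 ± 0.019 CPM per kb overlapped each other, and the highest SERPING1 library, at 0.124, overlapped C1S. The order of the leading pair was turned in wild-type JQ1, with CD59 at 69.3 ± 0.87 CPM per kb and CD46 at 44 ± 2.2. In knockout DMSO, CD46 was at 30.5 ± 2.2 and CD59 at 28 ± 0.9 CPM per kb, ranges that overlapped, and CFI (12.6 ± 1.2) stood above CD55 (10.2 ± 0.9). These per-length levels depend on the transcript taken for each gene. For CD59 it was the longest of 8 transcripts marked principal, with 7631 bases, and for CD46 one of 3278 bases. In CPM, not divided by length, CD59 was above CD46 in every group, at 242.6 and 142.3 in wild-type DMSO. The order of this pair, and its turn with JQ1, thus rests on the lengths taken.

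**Figure D1:**
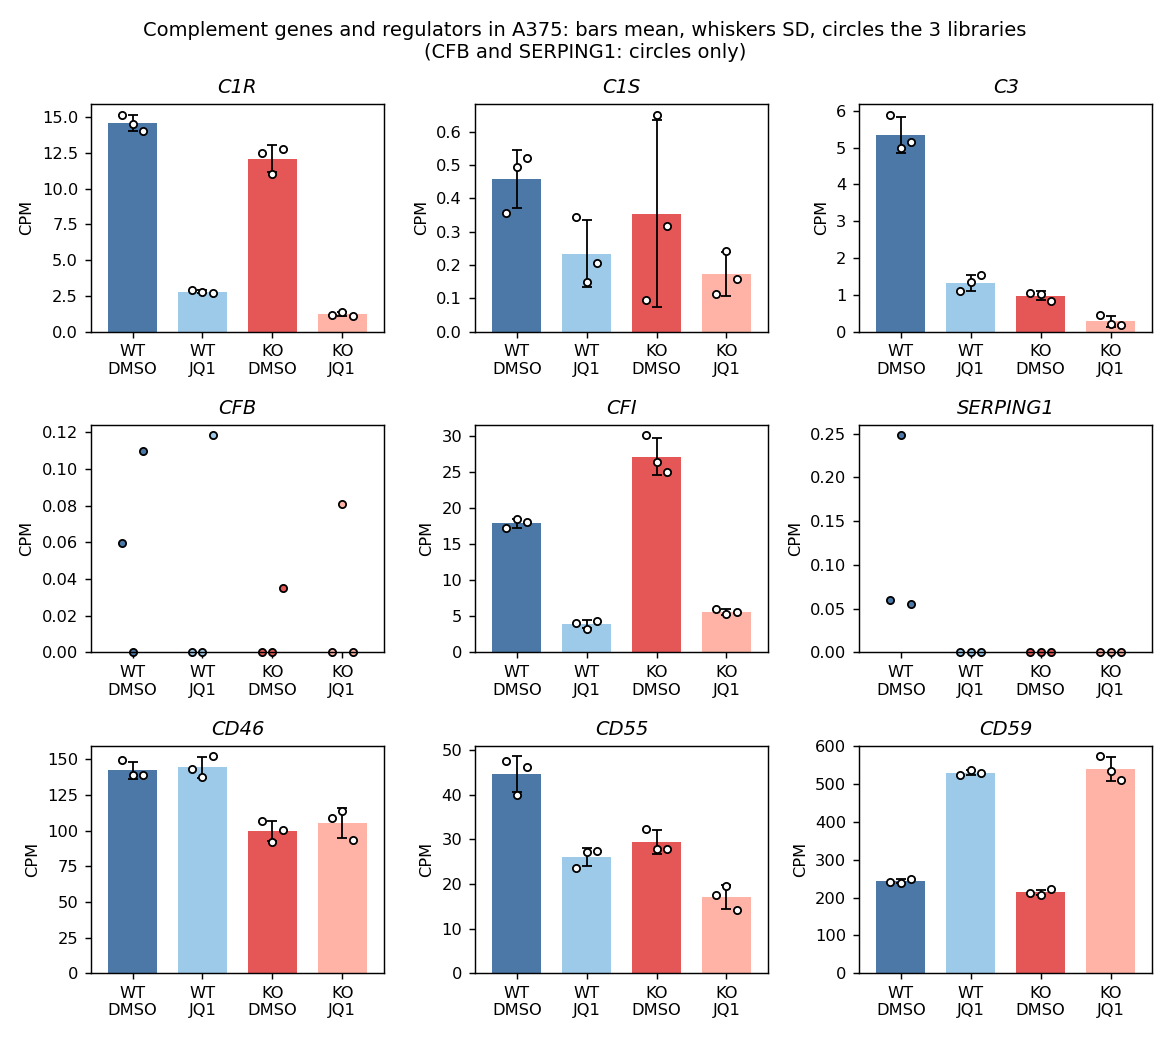
Level of each of the 9 members in CPM (one linear axis per gene starting at 0) in the 4 groups; bars are means, whiskers SD and circles the 3 libraries, with circles only for CFB and SERPING1. C1R, C3 and CFI are low in both JQ1 groups, CD59 is high in both, and CD46 and CD55 are lower in knockout cells than in wild-type cells of the same treatment.

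JQ1 lowered the soluble components C1R, C3 and CFI and the membrane regulator CD55, raised CD59, and left no detectable change in CD46 or C1S. The same 5 members passed the test in wild-type and in knockout cells, with edgeR's quasi-likelihood test and a Benjamini-Hochberg adjusted p under 0.05. In wild-type cells that was 1 member higher and 4 lower of 7 tested, where 33.1% of all genes tested passed, 16.9% higher and 16.2% lower, and the 2 groups did not overlap in 50.4% of genes. In knockout cells it was again 1 higher and 4 lower, beside 34.4% of all genes tested, 16.7% higher and 17.8% lower, with 42.3% of genes not overlapping. The median log2 fold change of the 7 tested members was -0.94 in wild-type and -1.03 in knockout cells, against -0.03 and -0.00353 over all genes tested. Scaled by library totals alone, 30% and 31.5% of the genes called in the 2 comparisons were higher, and the median of all genes moved by -0.13 and -0.12. The calls for these 5 members and their directions stood under that scaling.

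Among the 7 tested members, C1R had the largest decrease with JQ1 in both lines. Its levels were 15.2, 14.55 and 14.05 CPM in the wild-type DMSO libraries and 2.889, 2.783 and 2.722 CPM in the wild-type JQ1 libraries. In knockout cells they were 12.5, 11.02 and 12.78 CPM in DMSO and 1.18, 1.38 and 1.108 CPM in JQ1. Every JQ1 library lay below every DMSO library in both lines, and the knockout JQ1 libraries were the lowest of the 12. The log2 fold change with JQ1 was -2.38 (SE 0.107) in wild-type cells, with adjusted p = 1.27e-09, and -3.31 (SE 0.122) in knockout cells, with adjusted p = 1.42e-10, both from edgeR's quasi-likelihood test. C1R was therefore left at 19.2% ± 0.581 of the wild-type DMSO mean (SD, n = 3) in wild-type JQ1 and at 8.37% ± 0.963 in knockout JQ1. C1R overlaps C1RL, a related protease gene, on the same strand, and how reads were divided between them is set by the estimation of counts.

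The JQ1 response of C1R differed between the lines in the fit of all 4 groups. The difference of the 2 log2 fold changes, knockout minus wild type, was -0.93 (SE 0.166), with an adjusted p of 0.0442 from edgeR's quasi-likelihood test. It was the only one of 7 tested members called, where 0.134% of all genes tested passed, 0.0323% higher and 0.101% lower. The call was not firm: leaving out any 1 of the 12 libraries gave adjusted p values of 0.0564 to 0.156, and differences of -1.02 to -0.86. Scaling by library totals gave adjusted p = 0.0615 and a replicate block 0.118, both in edgeR. Without knockout JQ1 replicate 3 the difference was -0.86, with an edgeR adjusted p of 0.0564. In DMSO the knockout and wild-type C1R levels differed by -0.27 (SE 0.094), adjusted p = 0.107, although the groups did not overlap. In JQ1 they differed by -1.20 (SE 0.136), adjusted p = 4.32e-05, by the same test.

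C1S, which lies beside C1R and whose product acts next to it, was barely expressed. Its estimated counts were 12, 14 and 19 in wild-type DMSO, 11, 4 and 7 in wild-type JQ1, 3, 19 and 9 in knockout DMSO and 3, 6 and 5 in knockout JQ1. Counts overlapped between the knockout groups, and no comparison passed the test. The log2 fold change with JQ1 was -0.94 (SE 0.532) in wild-type and -1.03 (SE 0.6) in knockout cells, with edgeR adjusted p = 0.196 and 0.213. Without knockout DMSO replicate 1 the latter passed, at an edgeR adjusted p of 0.0458. At this depth a change in C1S was not detectable. C1S overlaps EMG1 on the same strand and LPCAT3 on the other.

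C3 was lower with JQ1 and lower in the knockout, and each held in both settings of the other factor. Its levels were 5.901, 4.993 and 5.14 CPM in wild-type DMSO and 1.099, 1.336 and 1.538 CPM in wild-type JQ1. In knockout cells they were 1.058, 1.03 and 0.8426 CPM with DMSO and 0.4569, 0.2029 and 0.1899 CPM with JQ1. The 3 wild-type DMSO libraries stood above all others, the knockout JQ1 libraries below all others, and wild-type JQ1 and knockout DMSO came close to each other, at 1.099 and 1.058 CPM at their nearest. With JQ1, C3 fell by 2.01 (SE 0.198) on the log2 scale in wild-type cells, adjusted p = 2.48e-06, and by 1.79 (SE 0.301) in knockout cells, adjusted p = 0.000288, both in edgeR. Knockout against wild type, the log2 fold change was -2.45 (SE 0.207) in DMSO, edgeR adjusted p = 2.55e-06, and -2.23 (SE 0.287) in JQ1, edgeR adjusted p = 0.000147. The JQ1 response differed between the lines by 0.22 (SE 0.4), edgeR adjusted p = 0.931, which leaves room for a difference in either direction. In knockout JQ1 C3 stood at 5.3% ± 2.82 of its wild-type DMSO mean (SD, n = 3), on counts of 12, 5 and 6. Without knockout JQ1 replicate 3, the JQ1 response in knockout cells was -1.54, edgeR adjusted p = 0.0016. C3 shares a stretch of the same strand with GPR108.

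**Figure D2:**
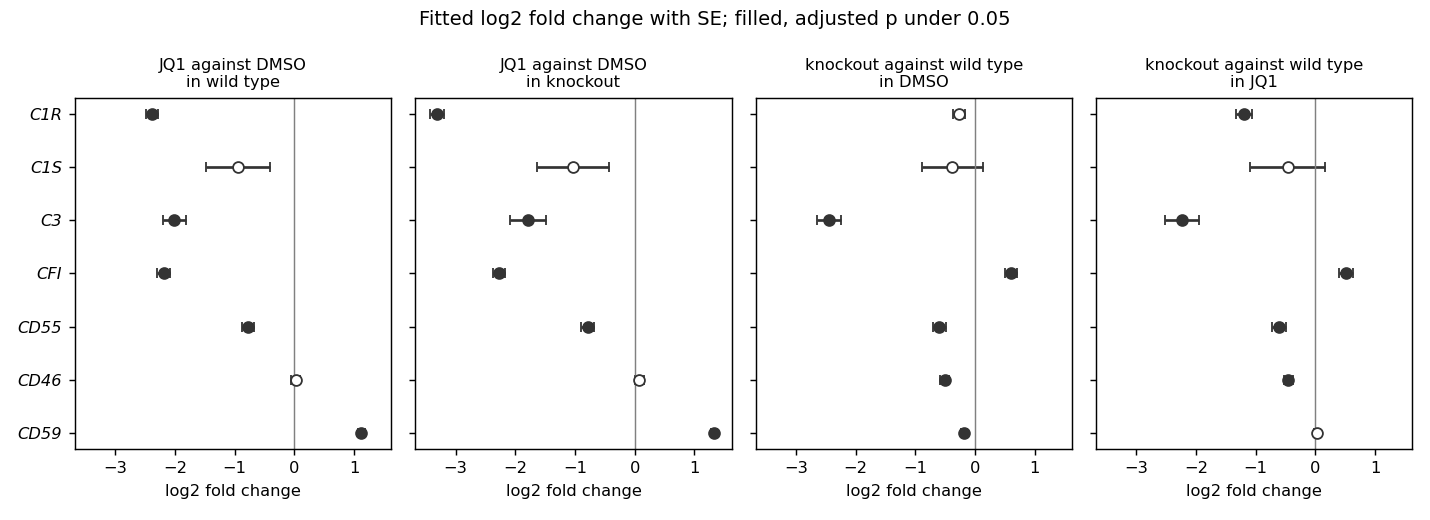
Fitted log2 fold changes with their standard errors for the tested members in the 4 comparisons, JQ1 against DMSO in each line and knockout against wild type in each treatment. C1R, C3, CFI and CD55 lie left of 0 with JQ1 in both lines and CD59 right of it, while in the knockout C3, CD46 and CD55 lie left of 0 and CFI right of it in both treatments.

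CFB and SERPING1 were close to the limit of detection. CFB had 13 estimated counts over all 12 libraries, namely 2, 0 and 4 in wild-type DMSO, 0, 0 and 4 in wild-type JQ1, 0, 0 and 1 in knockout DMSO and 0, 2 and 0 in knockout JQ1, and no difference between groups was detectable at this depth. SERPING1 had 2, 7 and 2 counts in wild-type DMSO and 0 in each of the other 9 libraries. With 3 counts over a group as the limit that a count of 0 allows, its level could be up to 0.0324 CPM in wild-type JQ1 and 0.0338 CPM in knockout DMSO, against a mean of 0.121 ± 0.11 CPM (SD, n = 3) in wild-type DMSO. With no filter on low counts, edgeR's adjusted p for SERPING1 was 0.0392 for JQ1 in wild-type cells and 0.112 for the knockout in DMSO, which did not pass. Of its 11 counts, 7 were in wild-type DMSO replicate 2. CFB overlaps C2 on the same strand.

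CFI moved in opposite directions with the inhibitor and with the knockout. Its levels were 17.23, 18.45 and 18.03 CPM in wild-type DMSO and 4.051, 3.303 and 4.349 CPM in wild-type JQ1. In knockout cells they were 30.04, 26.3 and 25.03 CPM with DMSO and 6.016, 5.275 and 5.54 CPM with JQ1. No 2 of the 4 groups overlapped, and knockout DMSO was the highest. With JQ1, CFI fell by 2.19 (SE 0.111) on the log2 scale in wild-type cells and by 2.27 (SE 0.108) in knockout cells, with edgeR adjusted p of 3.53e-09 and 1.4e-09. The knockout had more CFI by 0.60 (SE 0.097) in DMSO, adjusted p = 0.00111, and by 0.52 (SE 0.12) in JQ1, adjusted p = 0.0134, by the same test. The second of these did not pass when only the 2 JQ1 groups entered the fit (adjusted p = 0.0852 in edgeR), without wild-type JQ1 replicate 2 (0.0659) or without knockout JQ1 replicate 1 (0.0552). It passed without knockout JQ1 replicate 3, at an edgeR adjusted p of 0.0208. CFI was thus the one member that was higher in the knockout, at 151.5% ± 14.6 of the wild-type mean in DMSO (SD, n = 3).

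CD59 was the one member that JQ1 raised. Its levels were 242.1, 237.9 and 247.7 CPM in wild-type DMSO and 523.5, 536.5 and 527.6 CPM in wild-type JQ1. In knockout cells they were 212.9, 207.6 and 221.2 CPM with DMSO and 571.9, 534.1 and 510.8 CPM with JQ1. All 6 JQ1 libraries lay above all 6 DMSO libraries, and the JQ1 groups of the 2 lines overlapped. The log2 fold change with JQ1 was 1.13 (SE 0.051) in wild-type and 1.33 (SE 0.052) in knockout cells, with edgeR adjusted p of 1.47e-09 and 2.46e-10. The responses differed by 0.21 (SE 0.072), edgeR adjusted p = 0.432. In the knockout CD59 was lower by a small margin in DMSO, -0.18 (SE 0.051) with edgeR adjusted p = 0.0412, a call that was lost under 16 of 22 alternatives, among them RLE size factors (0.0789). Leaving out any 1 library other than knockout JQ1 replicates 1 and 3 gave edgeR adjusted p values of 0.0508 to 0.224. In JQ1 the difference was 0.03, edgeR adjusted p = 0.834.

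CD55, the other GPI-anchored regulator, went the other way from CD59 under JQ1. Its levels were 47.57, 39.98 and 46.15 CPM in wild-type DMSO and 23.62, 27.24 and 27.3 CPM in wild-type JQ1. In knockout cells they were 32.41, 27.88 and 27.94 CPM with DMSO and 17.59, 19.48 and 14.28 CPM with JQ1. Wild-type DMSO lay above all other libraries and knockout JQ1 below them, with each JQ1 group clear of the DMSO group of its line. With JQ1 it fell by 0.78 (SE 0.108) on the log2 scale in wild-type cells, adjusted p = 6.41e-05, and by 0.79 (SE 0.113) in knockout cells, adjusted p = 7.22e-05, in edgeR. The difference between those responses was -0.01 (SE 0.155), edgeR adjusted p = 0.996. CD46, the transmembrane cofactor, had a log2 fold change with JQ1 of 0.02 (SE 0.076) in wild-type and 0.08 (SE 0.077) in knockout cells, with edgeR adjusted p of 0.869 and 0.497. Its levels were 149.3, 138.6 and 139.1 CPM in wild-type DMSO and 143.3, 137.7 and 152 CPM in wild-type JQ1, ranges that overlapped.

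Knockout cells had less C3, CD46 and CD55 and more CFI than wild-type cells in both treatments. In DMSO 5 of 7 tested members passed, 1 higher and 4 lower (with CD59 the fourth), where 7.92% of all genes tested passed, 3.47% higher and 4.44% lower, and 29.6% did not overlap. In JQ1 it was also 5 of 7, 1 higher and 4 lower (with C1R the fourth), where 8.57% of all genes passed, 3.01% higher and 5.56% lower, and 23.1% did not overlap. Of the lower members, CD46 and CD55 lie distal to MAPKAPK2 on 1q. Among the other tested genes there, 42.3% were called lower in DMSO and 45.6% in JQ1. The CD59 call in DMSO was lost under 16 of 22 alternatives. The median log2 fold change of the tested members was -0.38 in DMSO and -0.46 in JQ1. The comparisons share control libraries with those of JQ1, so their values are given side by side and were not correlated.

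CD46 in the knockout was at 106.6, 92.33 and 100.7 CPM in DMSO and at 108.7, 113.8 and 93.32 CPM in JQ1. All 6 knockout libraries lay below all 6 wild-type libraries. The log2 fold change was -0.51 (SE 0.076) in DMSO and -0.46 (SE 0.077) in JQ1, with edgeR adjusted p of 0.000602 and 0.00136. For CD55 it was -0.60 (SE 0.108) in DMSO and -0.61 (SE 0.113) in JQ1, with edgeR adjusted p of 0.00232 and 0.00291. Without knockout JQ1 replicate 3 the JQ1 values were -0.38 for CD46 and -0.49 for CD55, and both calls held.

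CD46 and CD55 lie on distal 1q, on the telomere side of MAPKAPK2 itself. There are 8 tested genes between MAPKAPK2 and CD55, and 0 between CD55 and CD46. Of the 298 other tested genes distal to MAPKAPK2 on chromosome 1, 126 were called lower and 0 higher in knockout DMSO, or 42.3%, and their median change was -0.39 on the log2 scale. In JQ1 136 were called lower and 1 higher, or 45.6%, with a median of -0.37. Of the 1827 tested chromosome 1 genes before MAPKAPK2, 79 were called lower in DMSO (4.32%), with a median of -0.01. Within that stretch, 92 of the 298 genes had a lower fold change than CD46 in DMSO and 63 a lower one than CD55. In JQ1 these numbers were 110 and 66. CD46 lay between the quartiles of the stretch in both treatments. CD55, at -0.60 and -0.61, lay below the lower quartiles of -0.556 in DMSO and -0.562 in JQ1. The 20 tested genes nearest to the pair, 10 on each side, had a median of -0.63 in DMSO and -0.66 in JQ1, and with 20 on each side the medians were -0.48 and -0.45. Those 20 genes include MAPKAPK2 and DYRK3, which lies before it. The wider set takes in further genes before MAPKAPK2, so its medians cannot be read as a change with distance from the pair.

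Of the 6 nearest named neighbours, 1 passed the test in DMSO and 3 in JQ1, each of them lower. YOD1, a deubiquitinase gene, had log2 fold changes of -0.54 in DMSO and -0.60 in JQ1, with edgeR adjusted p of 0.000849 and 0.000412. PFKFB2, which sets fructose-2,6-bisphosphate levels, had -0.25 (adjusted p = 0.19) and -0.69 (adjusted p = 0.000975) by the same test. PIGR, the polymeric immunoglobulin receptor gene, had -0.30 in DMSO and -0.09 in JQ1 (edgeR adjusted p = 0.767 and 0.942), and AL356275.1 had -0.28 and -0.71 (edgeR adjusted p = 0.746 and 0.38). CD34 had -0.84 in DMSO and 0.51 in JQ1, opposite signs and neither past the threshold in edgeR (adjusted p = 0.399 and 0.661). The pseudogene CDCA4P4, which overlaps CD46 on the same strand, had -0.55 (adjusted p = 0.221) in DMSO and -0.97 (adjusted p = 0.0269) in JQ1 in edgeR. Its call was lost in DESeq2 (adjusted p = 0.0508) and in edgeR with only the JQ1 groups in the fit (0.0927). It was also lost in edgeR without replicate 1 or 2 of wild-type JQ1 or replicate 1 of knockout JQ1 (0.0631 to 0.129). Reads of CDCA4P4 may not be separable from those of CD46. For CD46 and CD55 the knockout values and those of the surrounding arm therefore move together, and the part of the arm in either result was not tested. The members elsewhere are C3 on chromosome 19, CFI on 4, CD59 on 11 and C1R on 12.

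**Figure D3:**
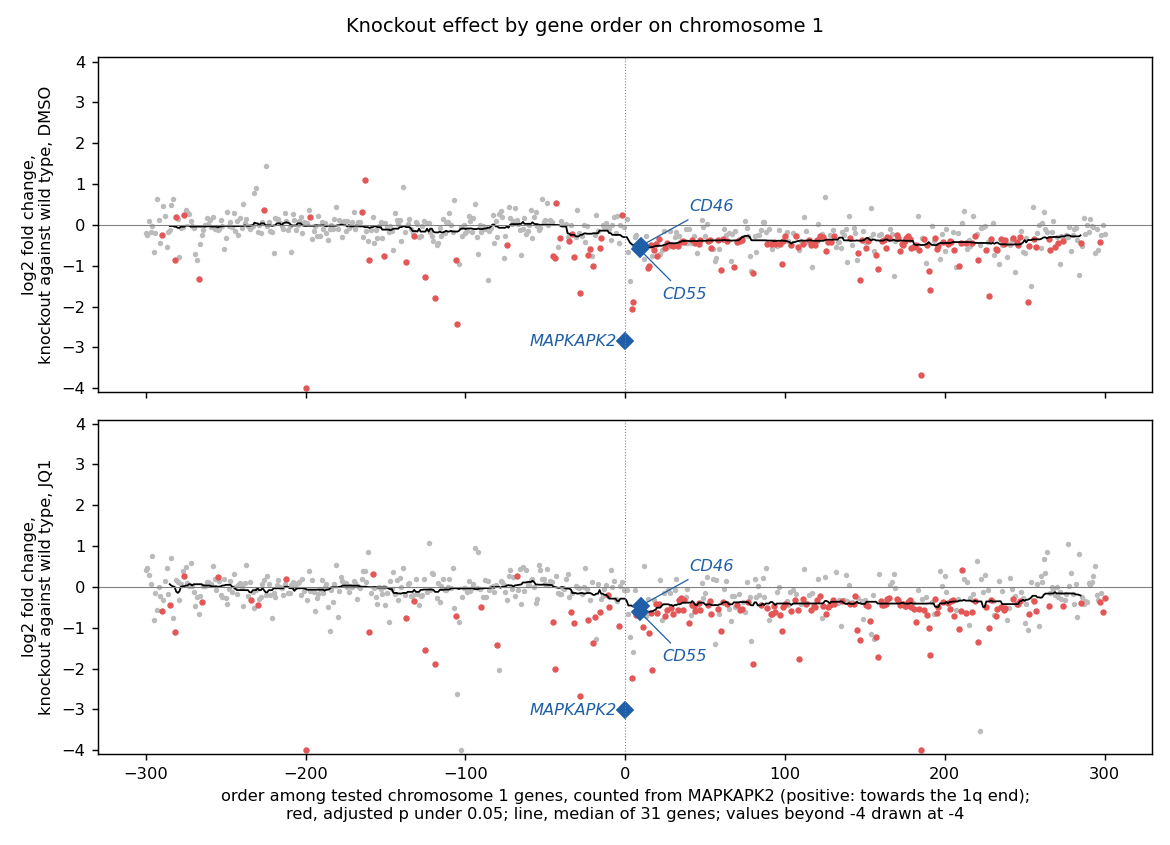
Log2 fold change of knockout against wild type in DMSO and in JQ1 for tested chromosome 1 genes in gene order, counted from MAPKAPK2 and positive towards the 1q end, with the line a running median of 31 genes and values beyond the lower edge drawn at it. Genes distal to MAPKAPK2 lie mostly below 0, with medians of -0.39 and -0.37, and CD46 and CD55 lie below those medians.

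The rest of the complement system was followed in 6 lists covering initiation, C3 and the alternative pathway, the terminal pathway, soluble regulators, membrane regulators and receptors, 56 genes together with the members. Of these 25 passed the filter and were tested. With JQ1 2 were higher and 12 lower in wild-type cells, and also 2 and 12 in knockout cells, with medians of -0.81 and -0.98, beside 33.1% and 34.4% of all genes tested. In the knockout 2 were higher and 6 lower in DMSO, and 2 and 7 in JQ1, with medians of -0.23 and -0.27, beside 7.92% and 8.57% of all genes tested. Fitting only the groups compared reduced the 14 calls for JQ1 in knockout cells to 9.

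Among initiators, 7 of 18 were tested, and JQ1 lowered 2 in wild-type and 3 in knockout cells, with C1R among them in both. Of all genes tested, 16.2% were lower in wild-type and 17.8% in knockout cells. C1RL, the neighbour of C1R, fell by 0.60 (SE 0.107) on the log2 scale in wild-type cells and by 0.98 (SE 0.11) in knockout cells, with edgeR adjusted p of 0.00056 and 7.04e-06. C4A, which supplies C4 to the classical convertase, had counts of 27, 22 and 15 in knockout DMSO and 4, 5 and 6 in knockout JQ1, a log2 fold change of -1.96 with edgeR adjusted p = 0.00112. In wild-type cells its log2 fold change was 0.06 (adjusted p = 0.906), and the 2 responses differed by -2.02 (SE 0.492), which did not pass (edgeR adjusted p = 0.203). C4A is nearly identical to C4B, whose counts went the other way in knockout cells, from 0, 7 and 9 with DMSO to 4, 14 and 24 with JQ1. The mean of C4A went from 0.716 to 0.182 CPM and that of C4B from 0.185 to 0.493 CPM, so the fall of C4A was in large part offset, and a change of C4 as a whole cannot be read from it. In the terminal pathway C5 was the only tested gene of 7, at 2.91 ± 0.324 CPM (SD, n = 3) in wild-type DMSO, and it passed in no comparison.

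Among soluble regulators 6 of 12 were tested, and 1 was higher and 4 lower with JQ1 in either line, with CFI among the lower. Beside this, 16.9% of all genes tested were higher and 16.2% lower in wild-type cells, and 16.7% and 17.8% in knockout cells. CLU, clusterin, which like CD59 acts on the membrane attack complex, rose in both lines. Its counts went from 4, 0 and 0 to 110, 77 and 100 in wild-type cells and from 0, 0 and 3 to 23, 13 and 7 in knockout cells, with edgeR adjusted p of 5.67e-06 and 0.00352. In JQ1 it was lower in the knockout, -2.54 (SE 0.45) with edgeR adjusted p = 0.00212.

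Of 5 receptors tested, 3 were lower with JQ1 in wild-type cells and 2 in knockout cells, where 16.2% and 17.8% of all genes tested were lower. CD93, a receptor once described as a C1q receptor, had 102, 81 and 132 counts in wild-type DMSO, 31, 19 and 30 in wild-type JQ1, 7, 3 and 7 in knockout DMSO and 2, 1 and 2 in knockout JQ1. It was lower in the knockout by -4.03 (SE 0.269) in DMSO and -3.74 (SE 0.388) in JQ1, with edgeR adjusted p of 2.42e-07 and 1.91e-05, the lowest values of the 25 genes in DMSO. The JQ1 call in knockout cells (adjusted p = 0.0418 in edgeR) was lost under 8 of 21 alternatives, among them DESeq2 (0.1) and without any 1 knockout library other than DMSO replicate 2 (0.06 to 0.143). C3AR1, the C3a receptor, had low counts, 18, 17 and 20 in wild-type DMSO and 8, 4 and 3 in wild-type JQ1. In knockout cells they were 18, 25 and 14 with DMSO and 11, 13 and 17 with JQ1. With JQ1 C3AR1 fell in wild-type cells, -1.77 (SE 0.387) with edgeR adjusted p = 0.00262. In knockout cells its change with JQ1 was -0.37 and was not called. Of the 5 receptors, 0 passed the test of a difference in response between the lines. C3AR1 was higher in knockout JQ1 than in wild-type JQ1, 1.59 with edgeR adjusted p = 0.0225. That call was lost in edgeR with only the JQ1 groups in the fit (0.0723). It was also lost without wild-type JQ1 replicate 2 or 3 (0.0769 and 0.101) or knockout JQ1 replicate 2 or 3 (0.0564 and 0.0542). ITGAX, a subunit of complement receptor 4, fell by 1.06 and 1.20 on the log2 scale, with edgeR adjusted p of 0.0103 and 0.00617. Its wild-type call was lost without wild-type JQ1 replicate 1 (0.053). Leukocyte markers as a list summed to 17.7 to 20 CPM in wild-type DMSO, 15.4 to 18.2 in wild-type JQ1, 13.1 to 18.8 in knockout DMSO and 10.3 to 11.1 in knockout JQ1, with CD163 and MS4A1 at 0. CD68 made up most of the sum, at 15.2 ± 1.32 CPM in wild-type DMSO (SD, n = 3), and it changed by -0.01 with JQ1 in wild-type cells (edgeR adjusted p = 0.971), while LYZ changed by -1.50 (edgeR adjusted p = 1.8e-05). PTPRC, which marks leukocytes, was at 0.188 CPM in wild-type DMSO. The marker levels are not a count of leukocytes in a cultured line, and a link to the receptor values was not tested. Fibroblast markers summed to 22.6 to 23.2, 14.3 to 16.8, 17.3 to 18.7 and 9.81 to 12.1 CPM in the same order. In wild-type cells with JQ1, 4 of these 5 markers fell, with log2 fold changes of -2.92 for LUM, -1.54 for COL1A1, -1.48 for DCN and -1.41 for PDGFRB (edgeR adjusted p = 6.91e-07, 0.00637, 0.00212 and 2.24e-06), and PDGFRA rose by 0.64 (edgeR adjusted p = 0.00161). In a cultured melanoma line these levels are not a count of fibroblasts, and a link of these genes to C1R and C3 was not tested.

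**Figure D4:**
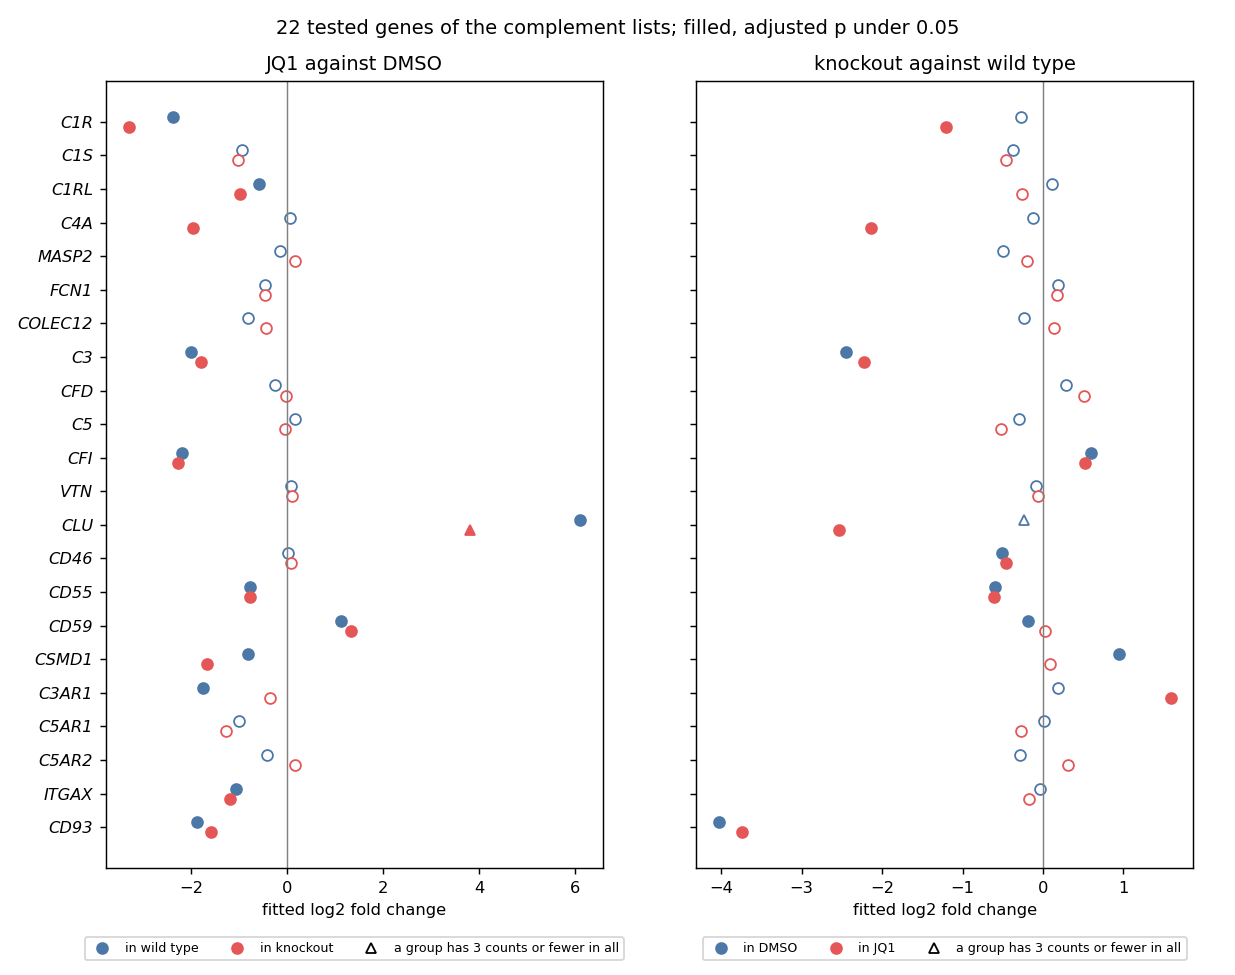
Fitted log2 fold changes of 22 of the 25 tested genes of the complement lists, JQ1 against DMSO on the left (wild type and knockout) and knockout against wild type on the right (DMSO and JQ1); filled symbols passed an adjusted p under 0.05, and triangles mark values with 3 counts or fewer in one of the groups. CD59 and CLU lie right of 0 under JQ1 in both lines and are filled, whereas 9 filled symbols per line lie left of 0.

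CSMD1, a membrane inhibitor of complement, fell with JQ1 by 0.81 in wild-type and by 1.67 in knockout cells on the log2 scale (edgeR adjusted p = 0.0235 and 9.29e-05), and was higher in knockout DMSO by 0.95 (0.0179). The call in wild-type cells was lost without wild-type DMSO replicate 1 or 3 or wild-type JQ1 replicate 2 or 3 (0.0528 to 0.099), and that in knockout DMSO without wild-type DMSO replicate 2 (0.0856) or knockout DMSO replicate 3 (0.0736). Genes that build the GPI anchor carried by CD55 and CD59 moved in both directions, 7 of 20 tested higher and 5 lower with JQ1 in either line, beside about equal shares of all genes tested in each direction (16.9% higher and 16.2% lower in wild-type cells, 16.7% and 17.8% in knockout cells). PIGH and PIGX, both subunits of GPI synthesis enzymes, rose by 0.66 and 0.57 in wild-type cells (edgeR adjusted p = 7.29e-05 and 0.000141). PIGB, a mannosyltransferase of the pathway, changed by -0.92 (SE 0.132) there, with edgeR adjusted p = 7.78e-05. In the knockout, 1 of the 20 passed in DMSO and 0 in JQ1, beside 7.92% and 8.57% of all genes tested. The gene that passed was PIGV, at 0.32 (edgeR adjusted p = 0.0349). Its call was lost in edgeR with library totals (0.0851), no filter (0.0624) or a replicate block (0.0624). The call was also lost without any 1 DMSO library other than knockout replicate 1.

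Genes whose levels followed those of each member over the 12 libraries were found by Pearson correlation of log2 CPM, a description in which the points share the 4 groups. C1R was most like MYOF (r = 0.997), ARHGEF6 (0.996) and ABLIM1 (0.996). CFI was most like IGFBP3 (0.994), LINC00326 (0.992) and NCKAP5 (0.991), and CD59 was most like HMGN2 (0.998), GPAT3 (0.996) and PRNP (0.995). For C3 they were SERTAD4 (0.981), IL24 (0.978) and A2M (0.974), the first pair of which lies distal to MAPKAPK2 on 1q although C3 does not. For CD46 they were EXO1 (0.981), ETS1 (0.976) and NSL1 (0.974), with EXO1 and NSL1 on distal 1q, and for CD55 they were LIMCH1 (0.983), PRICKLE2 (0.981) and RHOQ (0.98), none of them there. C1S, at its low counts, reached 0.892 with CMTM4, 0.832 with SETD5 and 0.821 with KIAA1549. Between members, the strongest correlations over the same 12 libraries were those of CFI and CD59 (r = -0.975), C1R and CD59 (-0.945), C3 and CD55 (0.944), C1R and CD55 (0.884) and C1R and CFI (0.865).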

How the data were processed

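RNA-seq of A375 cells was deposited for 12 libraries in 4 groups of 3. Per the submitters' processing notes, Trim Galore, cutadapt, FastQC, MultiQC, kallisto and DESeq2 were used with GRCh38.p10; the annotation and use of strand are not given in the sources used here. The main table, as deposited by the authors, holds estimated counts per gene symbol, not whole numbers, which were rounded. A second deposited table holds a normalized signal, the counts divided by gene and library factors, used only in alternatives. No per-sample column was left unmapped (0).

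Genes were filtered with filterByExpr, scaled by TMM and tested with edgeR 4.0.16 (R 4.3.3) quasi-likelihood fits over all 4 groups, with 4 contrasts and an interaction, Benjamini-Hochberg adjusted over all 21698 genes tested. Standard errors are the absolute log2 fold change over the square root of F. The pipeline was tested on simulated data with 200 changed genes. Totals of 25316899 to 34594295 counts limit precision for C1S, CFB and SERPING1, and limits from counts cover counting error only. Sequences are from RefSeq (GRCh38.p14), lengths and gene order from GENCODE 29.

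Named genes are the 9 members, MAPKAPK2, up to 3 further genes per list and contrast with the smallest adjusted p past 0.05, the 3 nearest tested genes on each side of CD55 and CD46, and the 3 most correlated genes per tested member (mean of at least 5 CPM, prior count 2). Some genes that this rule picks, and that the list counts include, are not reported here. C4B, C5 and the marker genes were named after their values were seen. The members and lists were chosen with earlier results of these data known. Alternatives were RLE factors, library totals, removal of 4 non-coding RNAs, the authors' factors, no filter, DESeq2 1.42.0, limma 3.58.1 on the log2 of the signal plus 1, the compared groups only, a replicate block, a threshold of 0.01 and each library left out.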

Additional observations from a re-analysis of the deposited data

Results flagged for a closer look

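The JQ1 response of C1R differed between the lines by a test of the difference itself. Its log2 fold change with JQ1 was -2.38 in wild-type and -3.31 in knockout cells, and the difference, knockout minus wild type, was -0.93 (SE 0.166), adjusted p = 0.0442 in edgeR's quasi-likelihood test. All 3 knockout JQ1 libraries, at 1.18, 1.38 and 1.108 CPM, lay below all 3 wild-type JQ1 libraries. The adjusted p lay between 0.0564 and 0.156 in edgeR with any 1 library left out, at 0.00669 in DESeq2 and at 0.0406 in limma. In edgeR it was 0.0615 with library totals and 0.118 with a replicate block. The call was lost under 15 of 21 alternatives and is not firm.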

How the results depend on the processing

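Of 21 called results for members, 18 kept their call under every alternative run at 0.05 or 0.01 and 3 lost it under at least 1 (the C1R difference in response, CD59 in knockout DMSO and CFI in knockout JQ1); 0 reversed. Of 47 called results for other named genes, 36 kept their call at 0.05 and 11 lost it, with 0 reversed. The number of members called was 6 without the low-count filter for JQ1 in wild-type cells (SERPING1 added) and 0 for the difference in response with library totals, the replicate block or a threshold of 0.01. With 1 library left out it was 5 to 5 and 5 to 6 for JQ1 in wild-type and knockout cells, 4 to 5 for the knockout in either treatment, and 0 to 0 for the difference. For the complement lists, calls for JQ1 in knockout cells went from 14 to 9 with only the groups compared, those for the knockout in DMSO from 8 to 5 at 0.01, and the difference in response from 1 to 0 (library totals, replicate block, 0.01) or 2 (no filter). With 1 library left out the list counts were 14 to 16, 13 to 15, 5 to 8, 7 to 10 and 0 to 0. Values that were not called changed sign with library totals for CD46 with JQ1 (-0.11 in wild type, -0.0371 in knockout), CD59 in knockout JQ1 (-0.00541) and the CD55 difference (0.00555), and in limma for the C1S difference (0.29). With 1 library left out, ranges crossing 0 were -0.0156 to 0.0604 for CD46 with JQ1 in wild type, -1.14 to 0.0886 for C1S in knockout DMSO, -0.0184 to 0.0629 for CD59 in knockout JQ1, and for the differences in response -0.55 to 0.69 (C1S), -0.29 to 0.47 (C3), -0.18 to 0.00260 (CFI), -0.00812 to 0.13 (CD46) and -0.11 to 0.11 (CD55). The causes were not tested. Same-numbered libraries were not closer than others in their deviations from the group means. Of same-numbered pairs, 4 of 18 correlated over 0.1 (range -0.486 to 0.374), against 13 of 36 differently numbered pairs (range -0.486 to 0.4). On average, 2 of 12 libraries were closest to their own number. With 3 libraries per group this check cannot decide whether the numbers mark a shared batch. With the replicate block, 5, 5, 4 and 5 members were called in the 4 comparisons and 0 for the difference. Library totals gave 30.8% and 26.7% of knockout calls as higher in DMSO and JQ1. Depth limits C1S, CFB and SERPING1.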

Other observations

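Cytokine receptors and the transcription factors that act below them, which are known to set complement gene transcription in many cells, were all above the filter, 16 of 16. With JQ1 7 were higher and 2 lower in wild-type cells and 6 higher and 2 lower in knockout cells, with medians of 0.28 and 0.13 on the log2 scale. Of all genes tested, 16.9% were higher and 16.2% lower in wild-type cells, and 16.7% and 17.8% in knockout cells. JAK1, the kinase of the IL-6 and interferon receptors, rose by 0.53 (SE 0.049) in wild-type and by 0.43 (SE 0.049) in knockout cells, with edgeR adjusted p of 1.56e-06 and 8.51e-06. OSMR, the oncostatin M receptor, rose by 0.49 and 0.40 (edgeR adjusted p = 9.29e-06 and 4.92e-05), whereas IL6R, the IL-6 receptor, changed by -1.23 and -0.74 (edgeR adjusted p = 4.47e-07 and 5.63e-05). In the knockout, IL1R1, the IL-1 receptor, was at -1.32 in DMSO and -1.49 in JQ1 (edgeR adjusted p = 0.00773 and 0.00291), the first lost without wild-type DMSO replicate 1 (0.0503). Its level was low, with means of 0.818 CPM in wild-type DMSO and 0.326 CPM in knockout DMSO. STAT3 was higher in the knockout by 0.40 in DMSO and 0.28 in JQ1 (edgeR adjusted p = 0.00138 and 0.0153). The second call was lost in edgeR with only the JQ1 groups in the fit (0.0688) or without wild-type JQ1 replicate 2 (0.0529) or 3 (0.076). IL6R was at -0.42 in knockout DMSO (edgeR adjusted p = 0.0147). That call was lost in edgeR with the authors' factors (0.0983) and in limma (0.118). It was also lost in edgeR without wild-type DMSO replicate 1 or 3 or knockout DMSO replicate 1 or 2 (0.0559 to 0.0743).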
